A study of Rattus norvegicus with 10 samples.

Results

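Among the 4803 accessions spotted on the rat oligonucleotide arrays, 7 probes carry no muscle gene's name here, yet their log2 ratios of treated to control tibia ran parallel to the ratio of Myl11, the regulatory light chain of fast skeletal muscle myosin, over the 10 arrays. The 7 probes were chosen by these ratios, over both LOAD and SHAM arrays. All values derived from the ratios, including the agreement between probes, are therefore given as a description with no test. The probes are D00688 (monoamine oxidase A, Maoa), U05675 (the fibrinogen B beta chain, Fgb), M75148 (kinesin light chain C, here Klc-C), NM_012662 (seminal vesicle secretory protein 4, Svs4) and the unnamed V01224, U04979 and M64780. The name of Svs4 came from the RefSeq table and those of Maoa, Fgb and Klc-C from the study, while 3 probes had no name in either source.

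The study asked which genes of cortical bone respond within hours to mechanical loading. Female Wistar rats of 12 weeks were anaesthetised with isoflurane, and the right lower leg was treated once. In the LOAD group (n = 5) it was bent at 4 points for 300 cycles at 2 Hz with a peak setting of 60 N, and in the SHAM group (n = 5) it was squeezed without bending. At 6 hours the tibial shaft, with ends, periosteum and marrow removed, was taken from the treated right and the untreated left leg, and both RNA samples of a rat were hybridised on the same array. All rats were thus anaesthetised and handled, and by the labels the control tibia is the other leg of the same animal, although the header numbers of LOAD 4 and SHAM 4 differ from this pattern. For SHAM 1 a label field reads LOAD, whereas its title and description read SHAM, and it was counted as SHAM. In whole tissue, fewer cells of a type and less RNA per cell cannot be told apart.

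The named genes serve unrelated functions. Monoamine oxidase A is a mitochondrial enzyme that breaks down serotonin and noradrenaline. Fibrinogen, the precursor of fibrin in the blood clot, is secreted by the liver as a protein of alpha, beta and gamma chains. Kinesin light chains link the microtubule motor kinesin to its cargo, and Svs4 is a secretion of the male seminal vesicle, while all rats here were female. Skeletal muscle lies against the tibial shaft, and its contractile apparatus contains myosin light chains and troponins, with muscle creatine kinase (Ckm) in its energy supply.

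Each of the 10 arrays carried both dyes, with the treated tibia in Cy3 on 3 arrays and in Cy5 on 2 arrays of each group. Between 32 and 166 spots per array fell below the confidence minimum of 0.11, and 52.4% to 81.6% of the spots had signal in both channels. The arrays were scanned in 4 batches according to their headers, each with both groups. The log2 ratios over all probes of LOAD 2 correlated at -0.34 with SHAM 2, at -0.14 with SHAM 4 and at -0.35 with LOAD 5, the arrays of the same dye orientation. Between arrays in general r ran from -0.66 to 0.49. Labels and headers state the dyes, so the direction was kept. In the headers 8 arrays held consecutive tibia numbers, while LOAD 4 held treated tibia 3 with control 26 and SHAM 4 held treated tibia 25 with control 4. With the controls of these arrays exchanged, all numbers would be consecutive. The labels do not mention this, so the arrays were used as labelled, and values with both controls exchanged are given beside the results they change. The number of arrays limits the precision of all values.

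For the 3 named members with an entry in the RefSeq promoter table (build GRCr8) the promoter is shown, because these members moved together with Myl11 and Ckm, whose promoters follow for comparison. Each window runs from 250 bases before to 50 bases after the start of the gene. The windows are Maoa at chrX:8681323-8681622 on the minus strand, Fgb at chr2:170700826-170701125 on the minus strand, Svs4 at chr3:173369829-173370128 on the minus strand, Myl11 at chr1:191260039-191260338 on the plus strand and Ckm at chr1:88189211-88189510 on the plus strand. Capitals mark the letters of 4 motifs searched on both strands.
Maoa promoter: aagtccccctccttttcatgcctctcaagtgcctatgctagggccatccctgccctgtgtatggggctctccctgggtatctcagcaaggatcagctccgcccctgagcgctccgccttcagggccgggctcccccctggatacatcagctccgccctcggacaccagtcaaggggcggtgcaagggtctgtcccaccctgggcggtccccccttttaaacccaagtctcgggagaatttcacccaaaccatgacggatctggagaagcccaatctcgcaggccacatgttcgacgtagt
Fgb promoter: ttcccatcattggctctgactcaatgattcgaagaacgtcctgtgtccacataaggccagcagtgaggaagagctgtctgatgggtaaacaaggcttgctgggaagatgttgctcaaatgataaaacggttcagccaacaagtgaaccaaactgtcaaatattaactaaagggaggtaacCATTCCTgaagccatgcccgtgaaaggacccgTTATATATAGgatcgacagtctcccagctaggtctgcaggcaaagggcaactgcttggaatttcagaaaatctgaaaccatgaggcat
Svs4 promoter: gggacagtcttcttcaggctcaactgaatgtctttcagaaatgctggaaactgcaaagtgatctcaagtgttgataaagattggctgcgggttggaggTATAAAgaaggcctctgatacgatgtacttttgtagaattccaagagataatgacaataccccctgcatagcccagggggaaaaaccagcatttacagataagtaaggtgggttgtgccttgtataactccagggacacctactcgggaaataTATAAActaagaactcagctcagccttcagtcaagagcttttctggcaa
Myl11 promoter: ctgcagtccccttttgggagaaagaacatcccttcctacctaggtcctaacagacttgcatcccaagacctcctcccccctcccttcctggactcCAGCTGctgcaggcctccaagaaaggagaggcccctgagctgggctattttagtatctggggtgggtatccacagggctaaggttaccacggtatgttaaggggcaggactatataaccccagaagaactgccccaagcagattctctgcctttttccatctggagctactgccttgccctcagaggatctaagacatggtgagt
Ckm promoter: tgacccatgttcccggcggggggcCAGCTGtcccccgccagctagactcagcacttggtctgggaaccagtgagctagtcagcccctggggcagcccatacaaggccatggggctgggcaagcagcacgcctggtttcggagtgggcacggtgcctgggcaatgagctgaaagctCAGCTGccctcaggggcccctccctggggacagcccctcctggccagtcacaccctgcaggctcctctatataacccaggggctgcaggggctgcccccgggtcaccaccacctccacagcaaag
The motifs were the muscle E-box CAGCTG, the MCAT element CATTCCT, the MEF2 element and the TATA box TATAAA, of which the last 2 can overlap. The E-box letters occurred once in Myl11 and at 2 places in Ckm, and in 0 of the 3 member promoters, against 15.1% of 33469 rat promoters. Fgb held the MCAT letters 70 bases before the start (5.17% of all promoters) and MEF2 letters 38 bases before it (3.29%). Svs4 held TATAAA at 2 places (14.2%), and Maoa held none of the 4 motifs. These matches describe letters in a window and not the binding of a factor.

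Maoa had the widest spread of any gene measured on every array. Its log2 ratio was 0.05, -0.69, -3.44, -3.52 and -2.33 on LOAD 1 to LOAD 5. On SHAM 1 to SHAM 5 it was -1.93, 2.84, 0.66, -0.17 and -0.24. Thus 3 loaded tibiae lay far below their control, 1 SHAM tibia lay far above and 1 below, and the groups overlapped. The mean was -1.99 ± 1.61 in LOAD and 0.23 ± 1.74 in SHAM (SD, n = 5 each), and the difference of -2.22 had a standard error of 0.88. The SD over the 10 arrays was 1.96, rank 1 of 4472 genes, whose median SD was 0.23.

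Fgb followed the same order of arrays on a smaller scale. Its log2 ratio was -0.08, -0.44, -1.89, -2.24 and -1.29 on LOAD 1 to LOAD 5. The SHAM arrays gave -0.89, 1.60, 0.18, -0.05 and -0.23. All 5 LOAD ratios were below 0, but SHAM 1, SHAM 4 and SHAM 5 were below 0 as well, and SHAM 1 and SHAM 5 fell within the range of LOAD. The mean was -1.19 ± 0.92 in LOAD and 0.12 ± 0.92 in SHAM, a difference of -1.31 (SE 0.49).

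Klc-C gave log2 ratios of 0.08, -0.73, -1.75, -2.17 and -0.73 in LOAD. Its SHAM ratios were -0.78, 1.73, 0.09, -0.17 and -0.03. The ratio of LOAD 1 lay above 3 of the 5 SHAM ratios. The mean was -1.06 ± 0.90 in LOAD and 0.17 ± 0.94 in SHAM.

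Svs4 gave -0.02, -0.53, -1.65, -1.64 and -0.77 in LOAD. The SHAM values were -0.74, 1.32, 0.50, 0.15 and -0.22. LOAD 3 and LOAD 4 were lowest and SHAM 2 was highest, with SHAM 1 close to LOAD 5. The mean was -0.92 ± 0.71 in LOAD and 0.20 ± 0.78 in SHAM.

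Of the unnamed probes, V01224 had the widest ratios, with 0.04, -0.52, -2.71, -3.03 and -1.71 in LOAD. Its SHAM ratios were -1.25, 2.11, 0.54, -0.15 and -0.04. The means were -1.59 ± 1.34 and 0.24 ± 1.23. Again SHAM 1 lay between the loaded arrays, and LOAD 1 lay among the SHAM arrays.

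U04979 gave -0.10, 0.10, -2.64, -2.16 and -1.36 in LOAD. Its SHAM ratios were -1.14, 1.83, 0.38, -0.01 and -0.04. On this probe LOAD 2 lay above 0, while Maoa, Klc-C and Svs4 were between -0.73 and -0.53 on that array. The means were -1.23 ± 1.22 in LOAD and 0.20 ± 1.07 in SHAM.

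M64780 moved least. Its ratios were 0.10, -0.07, -0.75, -0.96 and -0.50 in LOAD and -0.63, 0.59, -0.15, -0.30 and -0.39 in SHAM. With 4 of 5 ratios below 0 in each group (13.4% of all genes had this in SHAM), the means were -0.44 ± 0.45 and -0.18 ± 0.46, and the difference of -0.26 had a standard error of 0.25. Its SD of 0.45 ranked 444 among 4472 genes, whereas the other 6 ranked between 1 and 32.

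**Figure D1:**
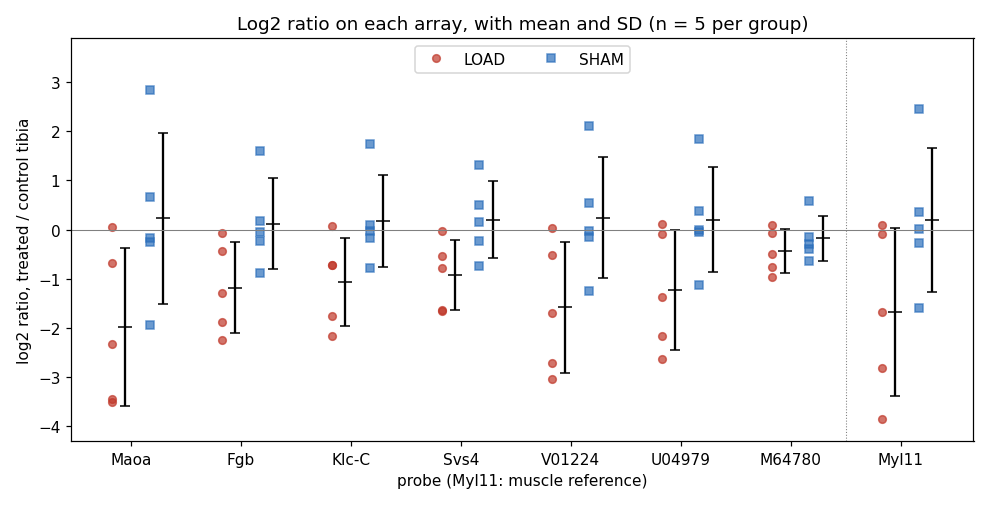
Log2 ratio of treated to control tibia (y axis) for the 7 probes and Myl11 (x axis), with a red circle for each LOAD array, a blue square for each SHAM array, and the mean with SD (n = 5 per group) in black. The groups overlap in every probe, LOAD 3 and LOAD 4 are the lowest arrays, and SHAM 2 is the highest.

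Over the members, the median of the LOAD means was -1.19 and that of the SHAM means 0.20, and the median difference was -1.31. Over the 4707 genes tested the corresponding medians were -0.01, 0.00 and -0.01. At a false discovery rate of 20% in limma, 0 of 4707 genes (0%) were called in LOAD, in SHAM or between them. An unadjusted p under 0.05 was reached by 157 genes (3.34%) in LOAD, by 32 genes (0.68%) in SHAM and by 70 genes (1.49%) between them. The LOAD ratio was below 0 on 5 of 5 arrays for 2 members, Fgb and Svs4, against 1.81% of all genes, and on at least 4 of 5 arrays for all 7 members, against 16%. The LOAD and SHAM ratios were separate for 0 members and for 2 of 4472 genes (0.0447%) with LOAD lower. Since the rule used these ratios, nothing is read from the counts of members.

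Single arrays set these values to a large extent. The median ratio of the members was 0.04 on LOAD 1, -0.52 on LOAD 2, -1.89 on LOAD 3, -2.17 on LOAD 4 and -1.29 on LOAD 5. In SHAM it was -0.89, 1.73, 0.38, -0.15 and -0.22. Without SHAM 2 the SHAM median turned from 0.20 to -0.23 and the difference from -1.31 to -0.94. Without SHAM 1, the array with the contradictory label, the difference was -1.56, and without LOAD 4 and SHAM 4 it was -1.09.

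The tibia numbers of LOAD 4 and SHAM 4 bear most on these values. With the controls of these arrays exchanged, the Maoa ratio became 0.49 instead of -3.52 on LOAD 4 and -4.17 instead of -0.17 on SHAM 4. The lowest ratio then belonged to a SHAM rat. The mean of Maoa was then -1.18 ± 1.66 in LOAD and -0.57 ± 2.65 in SHAM, and that of Fgb -0.73 ± 0.83 and -0.34 ± 1.45. The members' median was -0.60 in LOAD and -0.34 in SHAM, and the median difference was -0.27 in place of -1.31. The median r between members was 0.97 in either case. Which control belongs to which rat was not tested.

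Within the scan batches the LOAD minus SHAM difference of Maoa was -0.77 in the batch with 2 arrays of each group, and -4.10, -3.35 and -2.08 in the batches with 1 array of each. For Fgb it was -0.61, -2.07, -2.19 and -1.06, and for M64780 0.04, -0.61, -0.67 and -0.11. The batch that gave -3.35 for Maoa held only LOAD 4 and SHAM 4, and its direction reversed with their controls exchanged. Since the rule used these ratios, nothing is read from their direction within the batches.

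The members agreed closely with each other and with muscle transcripts, the property for which they were chosen. Pearson's r with the Myl11 ratio over the 10 arrays was 0.99 for Fgb and V01224, 0.98 for Maoa, 0.97 for U04979 and Klc-C, 0.96 for Svs4 and 0.95 for M64780. The 21 pairs of members had a median r of 0.97, from 0.90 to 1.00, and the 15 pairs without M64780 had at least 0.94. These arrays share libraries between all probes, and no p is given. An r of at least 0.9 with Myl11 was found for 18 of 4471 genes (0.403%), which were the 7 members and 11 others, and the median r of all genes was 0.01. Of the members M64780 had the lowest r, 0.953, and the highest of an unnamed probe outside them was 0.947 for AF056324, with an SD of 0.99.

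The members differed in how far they moved per unit of Myl11. The slope of the log2 ratio on that of Myl11 was 1.08 (SE 0.08) for Maoa, 0.85 (SE 0.05) for V01224 and 0.72 (SE 0.06) for U04979. It was 0.61 (SE 0.03) for Fgb, 0.58 (SE 0.06) for Klc-C, 0.50 (SE 0.05) for Svs4 and 0.24 (SE 0.03) for M64780. The slope was thus steepest for Maoa and lowest for M64780. Myl11 had no signal in the loaded tibia of LOAD 4 and LOAD 5 or in either tibia of LOAD 1 and LOAD 2. The control tibia of SHAM 4 and the treated tibia of SHAM 5 had none either. Its ratios on these arrays are bounds or without signal, and the slopes carry this limit. Klc-C, U04979 and M64780 also lacked signal in the loaded tibia of LOAD 4. The residual SD around these lines ran from 0.14 for M64780 to 0.40 for Maoa.

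The lines on Myl11 left a residual on each array. The mean residual in LOAD minus that in SHAM was -0.24 for V01224, -0.22 for Maoa, -0.21 for Svs4, -0.17 for Fgb, -0.15 for Klc-C, -0.11 for U04979 and 0.18 for M64780. Probes that follow Myl11 have small residuals by the way they were chosen, so these values are a description and no p is given.

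Of the 10 non-members nearest to the members' mean ratio, 5 were muscle genes and 5 had no name. The members were chosen for following Myl11, so muscle genes near their mean follow from that choice. First came troponin-C (r 0.99), the calcium sensor of the thin filament, followed by Myl11 (0.99), Ckm (0.97) and Capn3 (0.95), the muscle calpain. AF056324 (0.95), Tnni2 (0.93), the fast troponin I, AJ293948 (0.92), L10669 (0.91), AF130879 (0.91) and AF013247 (0.91) completed the first 10. AJ293948 had signal in only 1 of 20 tibiae. The mean ratio in LOAD was -1.98 for troponin-C, -1.67 for Myl11, -1.38 for Ckm, -0.63 for Capn3 and -0.43 for Tnni2. Pgam2, the muscle phosphoglycerate mutase, gave -0.83 with 1 LOAD array missing. The members' means in LOAD ranged from -1.99 to -0.44.

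The levels of the single tibiae show which side of each ratio moved. The level is the log2 intensity after normalization within and between arrays, and it was not compared between probes. In the loaded tibiae Fgb was 9.89, 9.79, 9.83, 9.66 and 9.84 on LOAD 1 to LOAD 5. In their control tibiae it was 9.97, 10.23, 11.72, 11.90 and 11.13. The loaded tibiae were thus nearly equal (SD 0.09), and the spread was in the controls (SD 0.87).

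In SHAM, Fgb was 9.72, 11.62, 9.80, 9.55 and 9.45 in the treated and 10.61, 10.02, 9.61, 9.60 and 9.68 in the control tibiae. The treated tibia of SHAM 2 and the control tibia of SHAM 1 stood above the rest. Each of these is the side that gave the array its large ratio.

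Maoa had the same form over a wider range. In the loaded tibiae it was 7.69, 8.15, 8.06, 8.43 and 8.15, and in their controls 7.64, 8.84, 11.50, 11.95 and 10.48. In SHAM the treated tibiae had 8.11, 11.38, 8.70, 7.78 and 7.04, and the controls 10.04, 8.54, 8.03, 7.95 and 7.28. The SD was 0.27 in loaded tibiae and 1.81 in their controls. From the dimmest to the brightest of 20 tibiae, the intensity differed 30.1-fold for Maoa, 12.6-fold for V01224, 8.94-fold for U04979, 6.38-fold for Svs4, 5.89-fold for Klc-C, 5.47-fold for Fgb and 4.55-fold for M64780.

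The same 5 tibiae were the brightest for 6 of the 7 members and for Myl11, Ckm and troponin-C. They were the controls of LOAD 3, LOAD 4, LOAD 5 and SHAM 1 and the treated tibia of SHAM 2. For Maoa the fifth brightest tibia had a level of 10.04 and the sixth 8.84, and for Fgb these were 10.61 and 10.23. Of these 5 tibiae 4 were untreated. M64780 shared 3 of its 5 brightest tibiae with Myl11. Its highest levels, 8.78 and 8.68, were in the treated and the control tibia of LOAD 1, where Myl11 was dim, at 6.79 and 6.69 against a highest level of 11.09. The scanner software gave these M64780 spots a probability of signal of 0.52 and 0.50, at the cut-off of 0.5 used here.

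**Figure D2:**
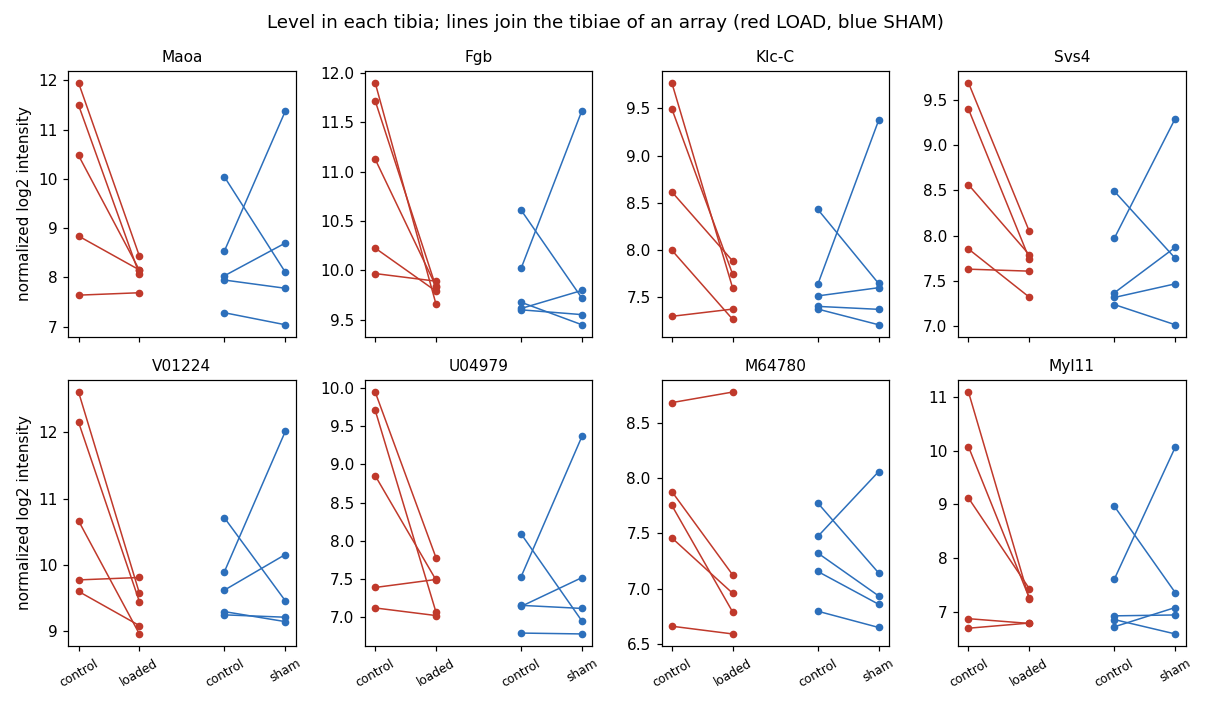
Normalized log2 intensity (y axis, a scale for each panel) of the 7 probes and Myl11 in each tibia, with lines joining control and treated tibia of an array, LOAD in red and SHAM in blue. In every panel but that of M64780, where both tibiae of LOAD 1 are highest, loaded tibiae lie closer together than their controls, and 3 LOAD controls, the SHAM 1 control and the SHAM 2 treated tibia are the highest.

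The levels between rats were estimated by limma over 4472 genes. Control tibiae of LOAD were above those of SHAM by 1.71 (SE 1.03) for Maoa, by 1.08 (SE 0.56) for Fgb, by 0.96 (SE 0.57) for Klc-C and by 0.95 (SE 0.49) for Svs4. For V01224 the difference was 1.21 (SE 0.78), for U04979 1.26 (SE 0.70) and for M64780 0.38 (SE 0.38). At the false discovery rate of 20% in limma, 0 of 4472 genes (0%) were called, and 237 genes (5.3%) had an unadjusted p under 0.05. The control level is one side of each ratio by which the members were chosen, so no p is given for them. With the controls of LOAD 4 and SHAM 4 exchanged, the fit gave a median difference of the members of -0.16 in place of 1.08. The fit ties the 2 channels of an array, so -0.16 is not a difference of plain group means. No reversal of the control levels is read from it.

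Loaded tibiae were compared with squeezed tibiae in the same way. The LOAD minus SHAM difference was -0.62 (SE 0.78) for V01224, -0.50 (SE 1.03) for Maoa, -0.27 (SE 0.57) for Klc-C and -0.23 (SE 0.56) for Fgb. Svs4 and U04979 both had -0.18, and M64780 had 0.12. In limma 0 of 4472 genes (0%) passed, and 217 genes (4.85%) had an unadjusted p under 0.05. Without SHAM 2 the median difference of the members turned from -0.23 to 0.17. The fit with both controls exchanged gave -1.14, although the exchange alters no level of a treated tibia. That fit ties the 2 channels of an array, so nothing is read from this value.

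The mean of both tibiae of a rat varied with Myl11 as well. Pearson's r between the mean level of the probe and that of Myl11 over the 10 rats was 0.97 for Klc-C and Svs4, 0.95 for Maoa, 0.94 for Fgb, 0.93 for U04979 and 0.89 for V01224, and 0.14 for M64780. Without LOAD 4 and SHAM 2, which differed most from the median Myl11 level, it was 0.96, 0.94, 0.91, 0.89, 0.87 and 0.79 for the first 6 and 0.08 for M64780. The mean level of Myl11 was itself tied to the size of its ratio (r 0.97). These correlations are thus not independent of the ratios and no p is given. M64780 reached an r of 0.79 without LOAD 1.

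**Figure D3:**
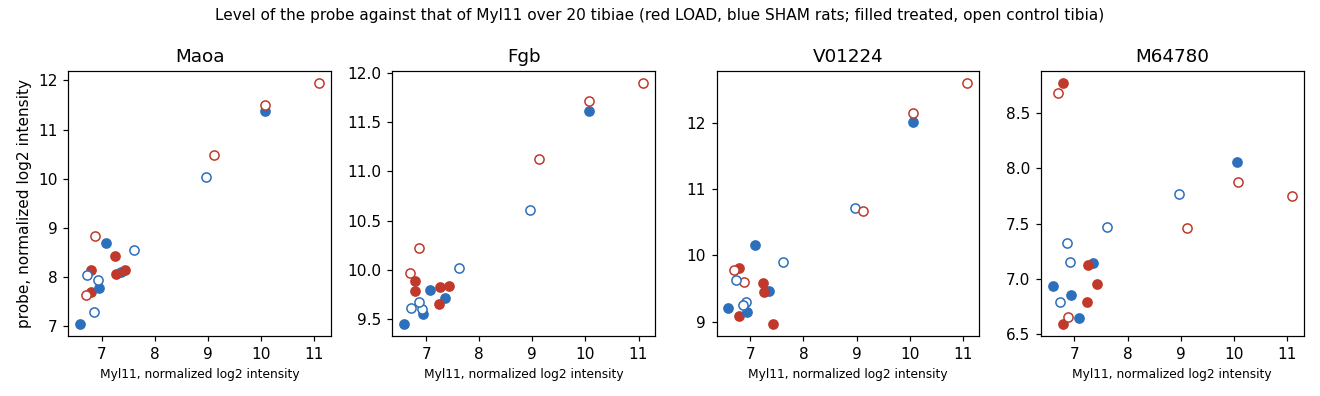
Level of Maoa, Fgb, V01224 and M64780 (y axes) against that of Myl11 (x axes), both as normalized log2 intensity, with a point for each of the 20 tibiae, LOAD rats in red and SHAM rats in blue, treated tibiae filled and controls open. The 5 tibiae with the most Myl11 are the 5 highest in the first 3 panels, and in that of M64780 both LOAD 1 tibiae lie apart at low Myl11.

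The probability of signal, which the scanner software gives for each spot and channel, differed between the members. It was at least 0.5 in all 20 tibiae for Maoa, Fgb and V01224, in 19 for Svs4, in 18 for Klc-C, in 14 for U04979 and in 12 for M64780. Of the muscle probes, Ckm had signal in 20 tibiae, Myl11 in 12, troponin-C in 9 and Pgam2 in 5. Maoa, Fgb and V01224 thus had signal also in tibiae in which Myl11 and troponin-C had none by this measure. Signal is that of the spot, and whether the named gene's own transcript gave it was not tested here and cannot be told from these arrays. The lowest level was 9.45 for Fgb, 8.96 for V01224 and 7.04 for Maoa. Levels without signal are bounds, so the folds of U04979, M64780 and Myl11 may be understated. The fold of M64780 also rests on a highest level with signal at the cut-off, so its error can go either way.

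No tested gene of the 3 pathway lists, which hold partners of the named members, had an r with Myl11 above 0.69. The r largest in size was negative, -0.77 for Tnp1 of the male tract list, which had signal in 8 tibiae. Of the monoamine list, 10 genes were tested, of which 0 were called and 4 had a LOAD minus SHAM difference below 0, with a median of 0.04. The dopamine receptor Drd2 had a difference of 0.29 (SE 0.26) and Maob, the other monoamine oxidase, of -0.28 (SE 0.15). The r of Maob with Myl11 was 0.16, against 0.98 for Maoa. Maoa was chosen for following Myl11 and Maob was not, so nothing is read from this contrast.

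Of the fibrinogen and plasma protein list 12 genes were tested, with 0 called, 6 below 0 and a median of 0.03. Apoa4, an apolipoprotein, had 0.28 (SE 0.22), the apolipoprotein Apoc3 -0.18 (SE 0.18) and haptoglobin (Hp) 0.18 (SE 0.10). The fibrinogen gamma chain (Fgg), the partner of Fgb, had 0.10 (SE 0.19), an r of 0.22 with Myl11, and signal in 0 of 20 tibiae. The summed level of the 5 liver markers had a range of 11.72 to 12.23 in loaded tibiae and 11.73 to 12.17 in their controls, and 11.56 to 11.92 and 11.58 to 11.90 in SHAM. Of these markers Fgg, Ahsg and Apoa1 had signal in 0 of 20 tibiae, Ambp in 17 and Hp in 20, so the sum is partly background.

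Of the male tract list 7 genes were tested, with 0 called, 3 below 0 and a median of 0.00. Tnp1, a nuclear protein of the spermatid, had 0.56 (SE 0.24), probasin (Pbsn) of the prostate -0.25 (SE 0.15) and Tnp2, the other transition protein, -0.15 (SE 0.13). No gene of the kinesin list was found on the array by name, so that Klc-C has no partner here. Over all genes tested, 0 were called, 2458 of 4707 were below 0 and the median difference was -0.01.

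**Figure D4:**
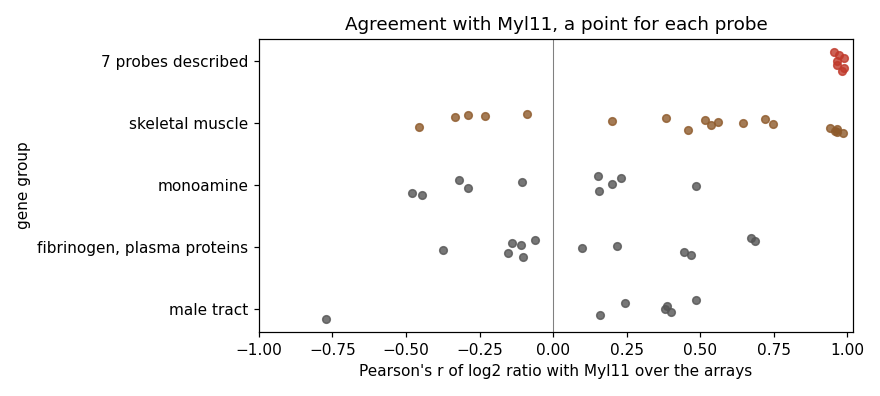
Pearson's r of the log2 ratio with that of Myl11 over the arrays (x axis) for the 7 probes, for skeletal muscle genes other than Myl11 and for the 3 pathway lists (y axis), with a point for each probe. The 7 probes, chosen for this value, lie from 0.95 to 0.99 with a few muscle genes. No gene of the 3 lists exceeds 0.69, and Tnp1 of the male tract list lies at -0.77.

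The muscle genes set beside the members were not uniform either. Of 20 skeletal muscle genes tested, 16 had a LOAD minus SHAM difference below 0, with 0 called and a median of -0.24, and their median r with Myl11 was 0.54. The summed level of 19 muscle genes was 13.72 to 14.61 in LOAD controls, 13.67 to 13.95 in loaded tibiae, 13.65 to 14.23 in treated SHAM tibiae and 13.67 to 13.96 in SHAM controls. The part of muscle RNA in the values of the 7 probes was not tested, and the probe sequences, which would bear on it, were not used here. Of the bone markers, Mepe, a matrix protein of osteocytes, had a LOAD minus SHAM difference of 0.73 (SE 0.32) and osteopontin (Spp1) -0.13 (SE 0.26). Over 6 bone markers the r with Myl11 ran from -0.45 for Mepe to 0.09 for Spp1.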

How the data were processed

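Tibial shafts of 10 rats were measured on 10 arrays, each comparing the treated with the contra lateral control tibia. The spots were quantified by the authors in BlueFuse, and the deposited array files give an unnormalized intensity per channel, and, as a fraction, the confidence and signal probability written by the authors' software. The deposited matrix of log2 ratios (array medians from -1.18 to 0.80) equals the unnormalized treated to control ratios of these intensities within 0.01 and was not used for the results.

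Values of spots whose confidence was below 0.11 were removed, and log2 ratios were normalized by loess (span 0.3, 4 iterations) and turned to treated over control. Group means were fitted for both treatments in limma 3.58.1 (R 4.3.3) over 4707 genes with at most 1 missing value, with Benjamini-Hochberg adjustment. Levels were taken after Aquantile normalization and fitted by limma's single channel analysis over 4472 genes measured on all arrays. The limma fits were tested on simulated, independent values whose SD was capped below that of every member. The simulation thus did not cover probes as wide and as correlated as the members.

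The members and lists were chosen with earlier results of these data known. Named genes were the members, 4 muscle references, the 10 nearest non-members, up to 3 genes per list by size of difference, Mepe and Spp1. Of these, 1 gene is not reported here. Fgg and Maob are also given as partners of members, Fgg having been chosen after its values were seen. Tests planned for the members' mean level, residuals and control and treated levels are not given, because these values are tied to the ratios by which the members were chosen. RefSeq names (1177 of 4803 accessions) and promoters come from build GRCr8. Alternatives changed normalization, the confidence filter, dye, batch and replicate terms, and the arrays included.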

Additional observations from a re-analysis of the deposited data

Results flagged for a closer look

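Of 42 sets of 5 values examined for a single outlying value, 5 (11.9%) held one. The sets were the ratios of each member in LOAD and SHAM and its levels in the 4 kinds of tibia. They are not independent, since the members share their pattern over the arrays and the ratios are differences of these levels. A chance rate of about 1 in 20 therefore does not apply to this share. In the treated SHAM tibiae SHAM 2 lay apart with a level of 11.62 for Fgb (nearest 9.80), of 9.37 for Klc-C (nearest 7.65) and of 9.37 for U04979 (nearest 7.52). In the control tibiae of SHAM, SHAM 1 had a Klc-C level of 8.43 against 7.64 for the nearest. In the loaded tibiae, LOAD 1 had an M64780 level of 8.78 against 7.12.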

How the results depend on the processing

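Of 205 values of the main comparisons under alternatives, 201 kept their side of the threshold or moved by less than 1 SD. Some of the 201 could not move. Dye, batch and replicate terms are balanced over the groups and leave the members' LOAD minus SHAM difference as it is. A group's median also stays when an array of the other group is left out. Of the other 4, 1 is the members' LOAD minus SHAM median of -0.27 with the controls of LOAD 4 and SHAM 4 exchanged, an alternative chosen after seeing the data, under which 3 genes passed for control levels against 0. The other 3 are the median LOAD minus SHAM differences of the pathway lists without normalization, 0.26 for monoamine, 0.27 for fibrinogen and plasma proteins and 0.18 for male tract genes; without normalization the median of all genes moved to -0.23 in LOAD, -0.42 in SHAM and 0.19 between them. The members' SHAM median turned to -0.19 under that setting. Of 4707 genes tested, 9 passed in LOAD (5 of them members) and 2 between LOAD and SHAM (1 a member), against 0 with loess. The rule used these ratios, so nothing is read from the counts of members. Leaving out 1 array at a time, the members' median ran from -1.46 to -0.89 in LOAD, from -0.23 to 0.44 in SHAM and from -1.59 to -0.94 for the difference, and the median r between members from 0.96 to 0.98.

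Replicate numbers did not pair the arrays (same-number r from -0.41 to 0.07, 0 best with their own number). With the number as a replicate block the members' median difference stayed at -1.31. Each number holds an array of both groups, so this block could not change that difference. Under it 17 genes passed for control and 6 for treated levels, against 0. Without LOAD 3, 14 genes passed for control levels. With the sign of LOAD 2 turned, an alternative chosen after seeing the data, the members' median was -1.01 in LOAD and -1.13 for the difference; with M64780 left out, also chosen afterwards, the latter was -1.37. The M64780 difference was 0.01 without normalization. The causes were not tested. Dim spots limit U04979 and M64780 most.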
